A study of Mus musculus with 8 samples.

Results

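The desmosomal cadherins, plakophilins and Perp were followed in the skin of control and Nampt-cKO mice. They were chosen by gene symbol and not by a cut on their values, but with earlier results of these data known. They are the desmogleins Dsg1a, Dsg1b, Dsg2 and Dsg3, the desmocollins Dsc1, Dsc2 and Dsc3, the plakophilins Pkp1 and Pkp3, and Perp, 10 of the 36333 features in the deposited table. All 10 had enough reads to be tested. Whole skin of male C57BL/6J mice was sequenced as poly-A RNA, in 4 libraries of control mice carrying floxed Nampt alleles (Nampt flox/flox) and 4 libraries of Nampt-cKO mice carrying the same alleles with KRT5-CreERT2. Their age is given as 8 weeks, which in the paper is the age of the Nampt-cKO mice at the tamoxifen injections. The labels give intraperitoneal tamoxifen for the Nampt-cKO mice, 100 µg/g once daily for 5 days from a 20 mg/mL solution, and name no treatment for the control mice. The paper, however, describes tamoxifen for control mice too, in its time line and its UVB experiment. All sequenced skin came from a single day after tamoxifen. The Cre is driven by a keratin 5 promoter, which is active in basal keratinocytes and the appendages that arise with them, so dermal, immune and fat cells of the same samples are not its target.

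Desmosomes are the junctions that tie keratinocytes to one another and to their keratin filaments. Desmogleins and desmocollins bind each other across the gap between cells, and inside the cell plakoglobin and the plakophilins connect their tails to desmoplakin, which holds the keratins. In the epidermis the cadherins are layered: Dsg3 and Dsc3 are strongest in the lower layers, desmoglein 1 and Dsc1 in the upper layers, and Dsg2 and Dsc2 are the forms of simple epithelia and are also found in hair follicles. Desmoglein 1 and Dsg3 are the antigens of pemphigus in human skin, and mice carry several copies of the desmoglein 1 gene, among them Dsg1a, Dsg1b and Dsg1c.

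Of the 10 genes, 5 passed the test between the groups, where 45.7% of the 17286 genes tested did. Dsg3 and Dsc2 rose and Dsg1a, Dsg2 and Dsc3 fell, and in all 5 the groups did not overlap (45.3% of all genes tested), so that 2 of 10 were higher (23.8% of all genes tested) and 3 of 10 were lower (22.0% of all genes tested). The share of members called was therefore close to that of all genes. The median log2 fold change of the members was −0.09, and that of all genes tested was −0.01. The same 5 genes passed, in the same directions, in each of 21 other ways of fitting the data. The test was edgeR's quasi-likelihood test on total exon reads with Benjamini-Hochberg adjustment over all genes tested and a threshold of 0.05, and levels are given as TMM-normalized CPM (exon reads scaled to a common library size). In bulk skin, fewer cells of a type and less RNA per cell cannot be told apart.

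The libraries held 39390895 to 53762935 exon reads. Nampt itself, the enzyme that recycles nicotinamide into NAD+ and the targeted gene, was at 60.4 to 77.7 CPM in control skin and at 32.3, 37.5, 76.1 and 49.6 CPM in Nampt-cKO replicates 1 to 4 (log2 fold change −0.53, standard error 0.24, edgeR adjusted p = 0.0974). The library labelled Nampt-cKO replicate 3 thus went against its label for this gene, and leaving it out gave a log2 fold change of −0.83 (edgeR adjusted p = 0.00284). Without that library the same number of members passed, 5, of which 2 were higher and 3 lower. Over all genes 7485 passed in that fit, 3860 higher and 3625 lower. Keratin 5 stood at 7553 ± 380 CPM (SD, n = 4) in control and 8551 ± 1294 CPM (SD, n = 4) in Nampt-cKO skin, so keratinocyte RNA was abundant in both groups. Whether every replicate was a mouse of its own is not given by the labels, so the p-values here reflect the variation among these libraries, part of which may be technical.

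Dsg1a, the most abundant desmoglein of control skin, fell the most. It was at 1343, 1398, 1205 and 1243 CPM in control replicates 1 to 4 and at 250.2, 314, 256 and 173 CPM in Nampt-cKO replicates 1 to 4. Every Nampt-cKO library was below every control, which held for 22.4% of all genes tested. Its log2 fold change was −2.38 (standard error 0.17, edgeR adjusted p = 1.33e-05), a level 5.22-fold lower.

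Dsg1b, another copy of the desmoglein 1 gene, did not follow it. Controls 1 to 4 had 127, 145, 117 and 119 CPM of Dsg1b, and Nampt-cKO replicates 1 to 4 had 103, 272, 280.0 and 147 CPM. Replicates 2 and 3 of the Nampt-cKO group were about level with each other and well above the controls, replicate 4 was just above them and replicate 1 was below them. The log2 fold change of 0.66 (standard error 0.28, 95% confidence interval 0.02 to 1.30, edgeR adjusted p = 0.0851) did not pass the test. Without Nampt-cKO replicate 1 it was 0.88 and did pass (edgeR adjusted p = 0.00621, within a span of 0.00621 to 0.320 over all alternatives).

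Dsg3, the desmoglein of the lower layers, rose. Controls had 149.9, 144, 116 and 119 CPM and Nampt-cKO replicates had 347, 313, 319.5 and 374 CPM. The lowest Nampt-cKO library was above the highest control, which was so for 23.0% of all genes tested, and both groups were tight. Its log2 fold change was 1.35 (standard error 0.11, edgeR adjusted p = 2.54e-05), or 2.55-fold higher.

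Dsg2, the desmoglein of simple epithelia, was low in control skin and fell. It was at 38.2, 36.0, 37.1 and 53.1 CPM in controls and at 22.7, 27.2, 23.8 and 20.3 CPM in Nampt-cKO replicates. All 4 Nampt-cKO libraries were below the lowest control, and control replicate 4 was above the other controls. The log2 fold change was −0.81 (standard error 0.15, edgeR adjusted p = 0.00182). Of its reads, only 21.5% to 28.3% in controls and 26.1% to 35.3% in Nampt-cKO libraries mapped to a single place, and on those reads alone the log2 fold change was −0.57 (edgeR adjusted p = 0.0145). Its level is therefore less certain than that of the other members, which had at least 94.4% uniquely mapped reads.

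Dsc1, the desmocollin of the upper layers, split the Nampt-cKO group. Controls had 359, 366, 345 and 296 CPM. Nampt-cKO replicates 2 and 3, at 330.2 and 327 CPM, lay within the range of the controls, while replicates 1 and 4, at 79.8 and 121 CPM, lay below it. The log2 fold change of −0.67 had a standard error of 0.40 (95% confidence interval −1.58 to 0.24) and did not pass (edgeR adjusted p = 0.207). Leaving out single libraries moved it from −0.96 to −0.40, with no call in either direction.

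Dsc2 rose the most of the members, from the lowest level of all. It was at 14.2, 11.3, 12.7 and 15.2 CPM in controls and at 28.7, 60.2, 65.0 and 31.5 CPM in Nampt-cKO replicates. The groups did not overlap, and within the Nampt-cKO group replicates 2 and 3 were again the high ones. This gave a log2 fold change of 1.80 (standard error 0.27, edgeR adjusted p = 6.58e-04), or 3.47-fold.

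Dsc3, the main desmocollin by level, fell slightly and evenly. Controls had 1120, 1158, 969.9 and 1029 CPM and Nampt-cKO replicates had 855, 862, 793 and 776 CPM. The highest Nampt-cKO library was below the lowest control. The log2 fold change was −0.38 (standard error 0.08, edgeR adjusted p = 0.00457), that is 1.30-fold lower.

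The plakophilins and Perp did not pass the test. Pkp1, the plakophilin whose loss makes human skin fragile, had 1717, 1856, 1600.1 and 1502 CPM in controls and 1670, 1946, 1687 and 1571 CPM in Nampt-cKO replicates. Its log2 fold change was 0.04 (95% confidence interval −0.17 to 0.26, edgeR adjusted p = 0.748), so a change beyond this interval was not seen, and its sign changed between fits. Pkp3, a plakophilin found through all living layers, was at 472 to 523 CPM in controls and at 452 to 572 CPM in Nampt-cKO libraries (log2 fold change −0.03, 95% confidence interval −0.24 to 0.17, edgeR adjusted p = 0.788).

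Perp, a membrane protein of desmosomes whose gene is a target of p53 and p63, had by far the highest RNA level. It was at 3517, 3644, 3264 and 3490.2 CPM in controls and at 3063, 3854, 2811 and 2807 CPM in Nampt-cKO replicates. Replicates 1, 3 and 4 of the Nampt-cKO group were below every control and replicate 2 was above every control. The log2 fold change of −0.15 (95% confidence interval −0.40 to 0.10) did not pass (edgeR adjusted p = 0.295), and without Nampt-cKO replicate 2 it was −0.27 and did (edgeR adjusted p = 0.0182, within a span of 0.0182 to 0.524 over all alternatives).

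**Figure D1:**
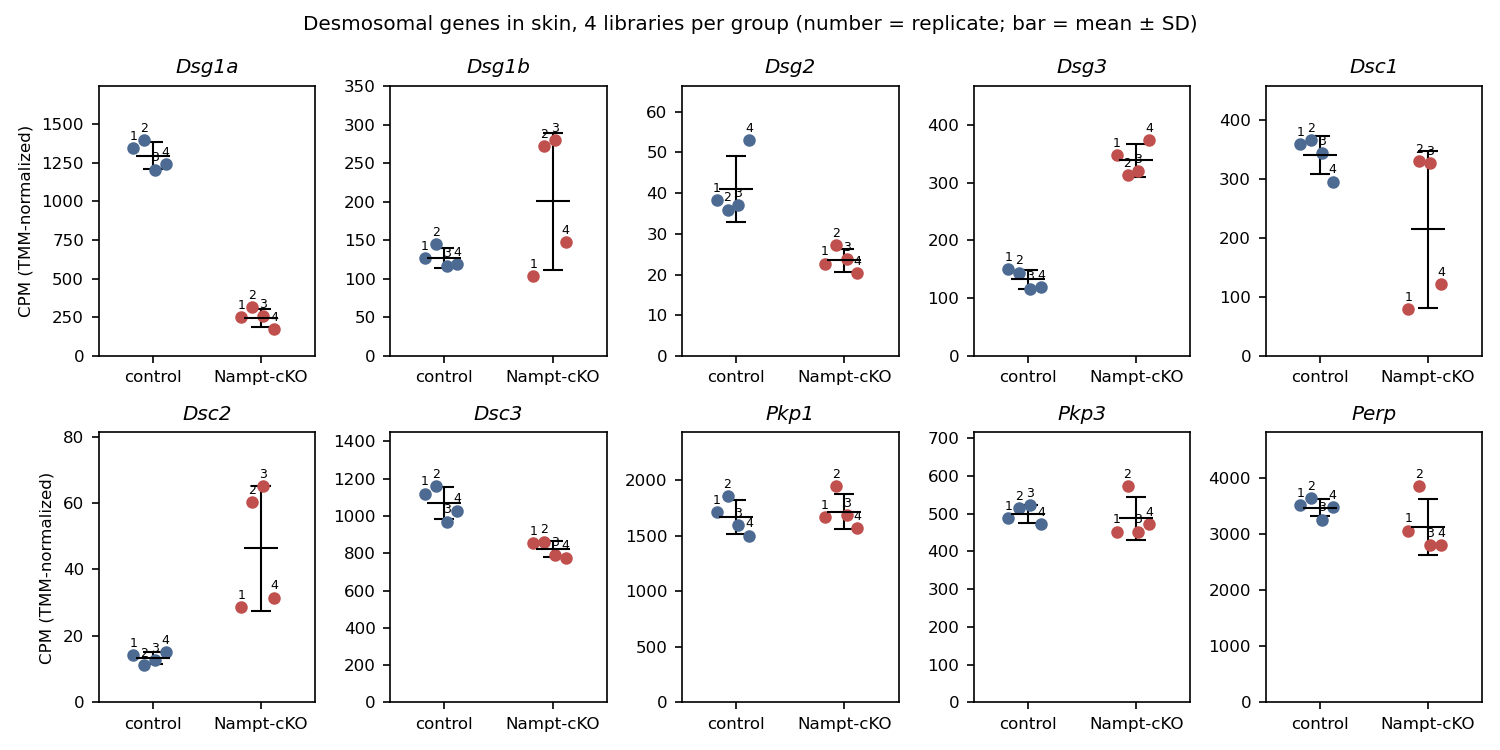
CPM (TMM-normalized, linear axis from 0) of the 10 genes in the 4 control (blue) and 4 Nampt-cKO (red) libraries, with the replicate number at each point and the mean ± SD as bars. Dsg1a, Dsg2 and Dsc3 were lower and Dsg3 and Dsc2 higher in every Nampt-cKO library, and Nampt-cKO replicates 2 and 3 stood above replicates 1 and 4 in Dsg1b, Dsc1 and Dsc2.

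Nampt-cKO replicates 2 and 3 were thus the highest of their group in Dsg1b, Dsc1 and Dsc2 alike. The same libraries were highest of their group in 4 marker lists. The stress keratins Krt6a, Krt6b, Krt16 and Krt17, which keratinocytes make in wounded and inflamed skin, summed to 8575, 19945, 18580 and 13874 CPM in Nampt-cKO replicates 1 to 4 and to 1982 to 2088 CPM in controls. The neutrophil genes S100a8, S100a9, Cxcr2, Csf3r and Retnlg, of which the S100 genes are also made by inflamed keratinocytes, summed to 32.5, 513, 727 and 154 CPM and to 3.03 to 3.31 CPM in controls, and Cxcr2 and Retnlg were at 0 in some of the libraries. All 4 stress keratin genes and all 5 neutrophil genes rose, beside 23.8% of all genes tested. The suprabasal keratinocyte genes, described further on, summed to 5744, 9111, 6101 and 3361 CPM in Nampt-cKO replicates 1 to 4 and to 21561 to 23150 CPM in controls. The 5 skeletal muscle genes, none of which passed the test, summed to 81.8, 1090.0, 3049 and 305 CPM and to 147 to 1938 CPM in controls. The part of any of these in the desmosomal values was not tested.

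The make-up of the desmogleins changed in every Nampt-cKO library. Levels of different genes were compared as RPKM (exon reads scaled by the authors to exon length and to library size). Summed over Dsg1a, Dsg1b, Dsg2 and Dsg3, the level was 251.6 ± 17.7 RPKM (SD, n = 4) in control and 134 ± 13.9 RPKM (SD, n = 4) in Nampt-cKO skin. Dsg1a made up 79.3% ± 0.415 (SD, n = 4) of that sum in controls and 26.8% ± 4.59 (SD, n = 4) in Nampt-cKO skin. Dsg3 went from 11.0% ± 0.737 (SD, n = 4) to 50.6% ± 9.08 (SD, n = 4), and Dsg1b from 7.32% ± 0.308 (SD, n = 4) to 20.1% ± 7.26 (SD, n = 4). The share of Dsg2 was 2.47% ± 0.579 (SD, n = 4) in controls and 2.49% ± 0.142 (SD, n = 4) in Nampt-cKO skin.

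**Figure D2:**
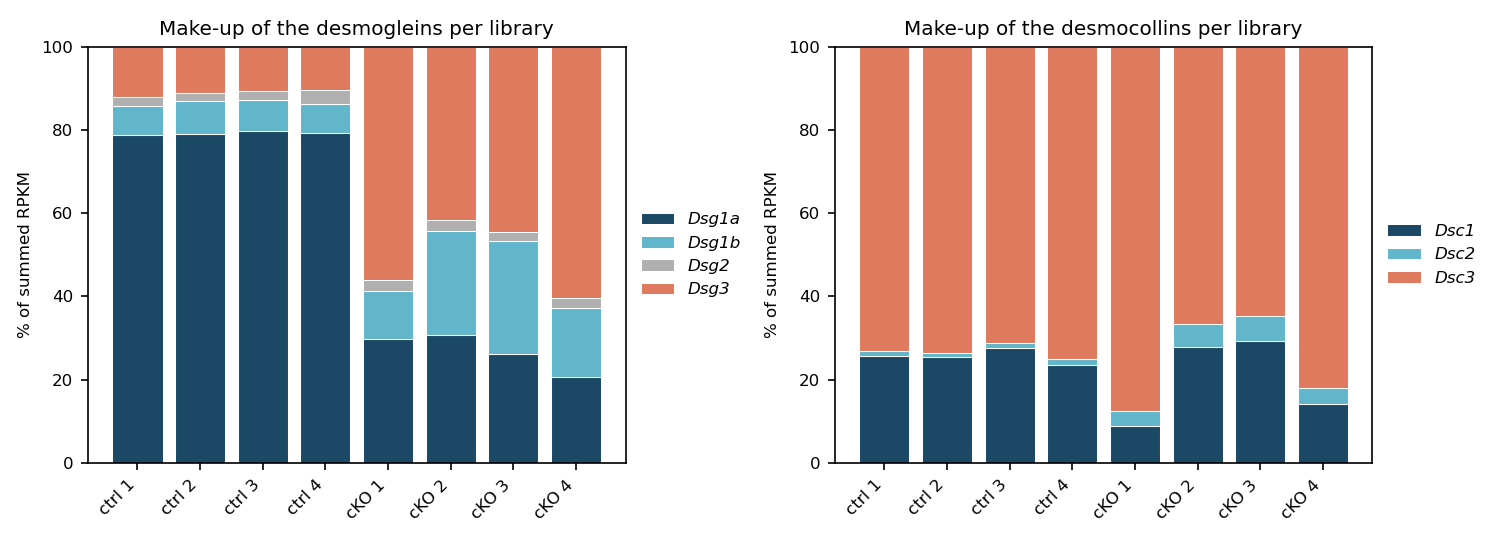
Share of the summed RPKM (percent, from 0 to 100) of each desmoglein (left) and desmocollin (right) in each of the 4 control (ctrl) and 4 Nampt-cKO (cKO) libraries. Dsg1a was 78.8% to 79.8% of the desmogleins in controls and 20.6% to 30.7% in Nampt-cKO libraries, while Dsc3 was the largest desmocollin share in all 8 libraries.

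Dsc3 was 73.3% ± 1.60 (SD, n = 4) of the summed desmocollin level in controls and 75.2% ± 11.3 (SD, n = 4) in Nampt-cKO skin, a sum of 230.2 ± 16.9 and 165 ± 26.5 RPKM (SD, n = 4 each). Dsc2 went from 1.08% ± 0.188 (SD, n = 4) to 4.77% ± 1.29 (SD, n = 4). Pkp1 was 68.7% ± 1.70 (SD, n = 4) of the summed level of Pkp1 and Pkp3 in controls and 69.9% ± 1.20 (SD, n = 4) in Nampt-cKO skin.

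Ratios of reads within a library, which no scaling between libraries can move, were compared for 6 pairs by exact two-sided permutation tests adjusted over the 6. With 4 libraries against 4, the smallest p these tests can give is 0.0286, and 4 ratios reached it. The ratio of Dsg3 to Dsg1a plus Dsg1b, lower-layer against upper-layer desmogleins, was −3.51 to −3.29 on the log2 scale in controls and −0.91 to 0.22 in Nampt-cKO libraries. That is a difference of 3.07 (pooled SD 0.39), an 8.39-fold shift (exact permutation p = 0.0286, adjusted p = 0.0429). As Dsg3 had risen and Dsg1a had fallen with no overlap, this ratio largely restates those results. The ratio of Dsg1a to Dsg1b, the copies of desmoglein 1, was 3.27 to 3.40 in controls and −0.13 to 1.28 in Nampt-cKO libraries, a difference of −2.96 (exact permutation p = 0.0286, adjusted p = 0.0429). The controls lay within a narrow band in both ratios and the Nampt-cKO libraries spread more widely without reaching it.

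Dsg2 to Dsg3 differed by −2.15 on the log2 scale and Dsc2 to Dsc3 by 2.09, each with no overlap between the groups (exact permutation p = 0.0286, adjusted p = 0.0429 for each). In both pairs the genes had moved in opposite directions with no overlap. These ratios therefore had to separate, and their tests add no support to the results of the single genes. Dsc3 to Dsc1 was 1.49 to 1.80 in controls and 3.42, 1.38, 1.28 and 2.68 in Nampt-cKO replicates 1 to 4. Nampt-cKO replicates 1 and 4 were above the controls and replicates 2 and 3 below them (difference 0.54, exact permutation p = 0.429, adjusted p = 0.429). Pkp1 to Pkp3 was 1.61 to 1.85 in controls and 1.73 to 1.90 in Nampt-cKO libraries (difference 0.08, pooled SD 0.10, exact permutation p = 0.314, adjusted p = 0.377).

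**Figure D3:**
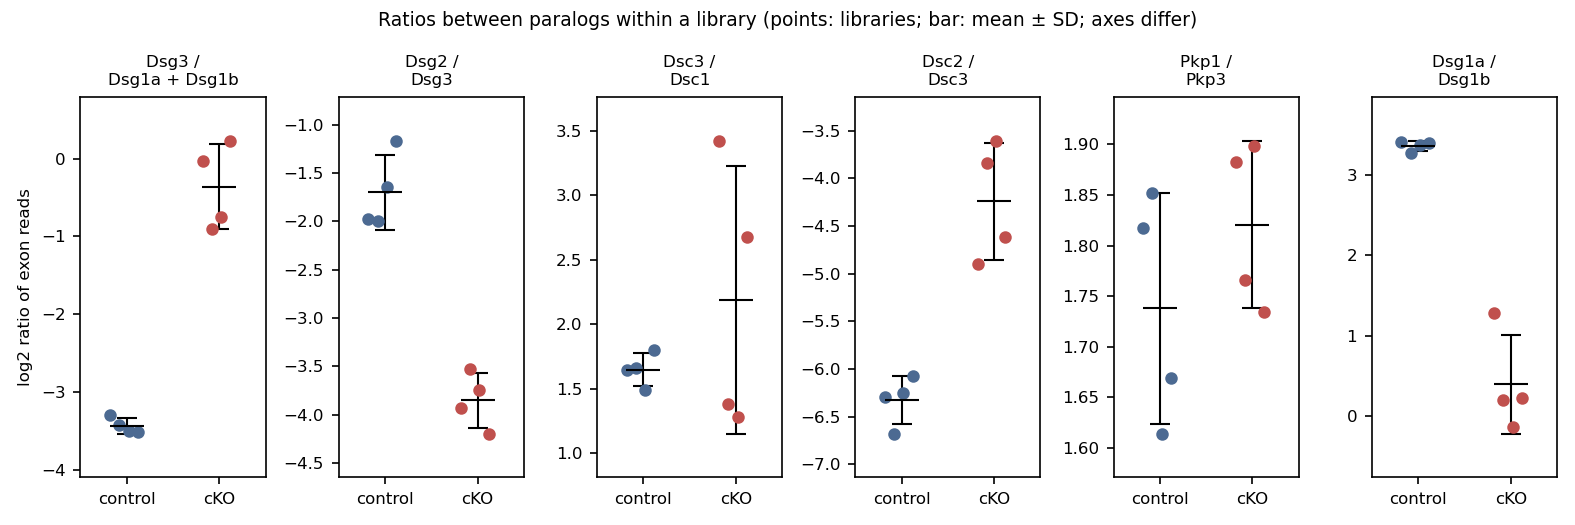
Log2 ratio of total exon reads between paralogs in each of the 4 control (blue) and 4 Nampt-cKO (red) libraries, with the mean ± SD as bars and an axis of its own per panel. The groups were apart in Dsg3 to Dsg1a plus Dsg1b, Dsg2 to Dsg3, Dsc2 to Dsc3 and Dsg1a to Dsg1b, and overlapped in Dsc3 to Dsc1 and Pkp1 to Pkp3.

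By RPKM, the order of the members in control skin was Perp (1583), Pkp1 (309), Dsg1a (199), Dsc3 (169), Pkp3 (140.3), Dsc1 (59.0), Dsg3 (27.7), Dsg1b (18.4), Dsg2 (6.15) and Dsc2 (2.47). No neighbours in that order overlapped in their ranges over the 4 libraries. In Nampt-cKO skin it was Perp (1346), Pkp1 (300.5), Pkp3 (129), Dsc3 (123), Dsg3 (66.7), Dsg1a (36.1), Dsc1 (34.9), Dsg1b (27.4), Dsc2 (8.10) and Dsg2 (3.33). There Pkp3 and Dsc3 overlapped, and so did the neighbours Dsg1a, Dsc1 and Dsg1b. Dsg3 thus moved from below Dsc1 to above Dsg1a, and the bottom places of Dsg2 and Dsc2 were exchanged.

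Set against other epithelial genes, the sum of the members gave different pictures. Per unit of Cdh1, the E-cadherin of adherens junctions, the summed RPKM was 23.8 ± 1.21 (SD, n = 4) in control and 23.7 ± 3.30 (SD, n = 4) in Nampt-cKO skin. Per unit of Krt5 plus Krt14, keratins of the basal layer, it was 0.588 ± 0.0133 (SD, n = 4) and 0.278 ± 0.0413 (SD, n = 4). Krt14 itself rose, with a log2 fold change of 1.86 (edgeR adjusted p = 3.08e-04). Cdh1 was not level either, at 100.6 to 110.1 RPKM in controls and 81.7 to 92.9 RPKM in Nampt-cKO libraries. Perp, at 1583 RPKM in control skin, was the largest term of the sum, which hides opposite changes of other members. Per unit of Cdh1, Dsg1a went from 1.89 ± 0.121 to 0.415 ± 0.106 and Dsg3 from 0.262 ± 0.0285 to 0.764 ± 0.0888 (SD, n = 4 each).

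The 7 cadherin members lie in a single cluster on chromosome 18 (GRCm38, 19960930 to 20604526), in the order Dsc3, Dsc2, Dsc1, Dsg1a, Dsg1b, Dsg3 and Dsg2. Genes that rose and genes that fell lie side by side there: Dsc2 follows Dsc3, and Dsg3 precedes Dsg2. Pkp1 is on chromosome 1 (135871394 to 135919207), Pkp3 on chromosome 7 (141078229 to 141090511) and Perp on chromosome 10 (18845071 to 18857073). Beyond the Dsg2 end of the cluster, Ttr, which encodes transthyretin, a carrier of thyroid hormone and retinol, rose from 3.71 ± 2.01 to 38.4 ± 10.8 CPM (± SD over 4 libraries per group, log2 fold change 3.37, edgeR adjusted p = 2.05e-04). The next gene, B4galt6, a galactosyltransferase, did not pass (log2 fold change 0.08, below 0 in 6 alternatives, edgeR adjusted p = 0.833).

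Dsg1a and Dsg1b share sequence, and reads can be split between such copies. Of the 50-base words of the longest annotated Dsg1a transcript, 31.6% also occur in Dsg1b, and of those of the longest Dsg1b transcript 45.5% occur in Dsg1a. That Dsg1b transcript has 3965 bases and the exon length in the deposited table is 5952, so not all counted sequence was compared. The uniquely mapped share of their reads was 94.7% to 96.7% for Dsg1a and 94.4% to 96.9% for Dsg1b over the 8 libraries, and with unique reads alone the ratio between them differed by −2.96 as before. Dsg2 overlaps the predicted gene Gm16090, which holds 4.95% of its words and was near 0 in all libraries. Dsg1a overlaps the predicted gene Gm31237 at its edge. The counting is not stated to use strand, so reads of such overlaps cannot be assigned. The share of reads in introns and across splice junctions overlapped between the groups in all 10 members. For Dsg1a, 0.972% to 1.12% of gene reads were intronic in controls and 0.674% to 1.56% in Nampt-cKO libraries, and for Dsg3 7.72% to 13.3% and 9.69% to 12.4%. Over all genes, the intronic share of gene reads did not overlap, at 10.8% to 11.8% in controls and 12.7% to 16.5% in Nampt-cKO libraries, and its part in the desmosomal values was not tested.

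The other desmosomal genes divided in a similar way. Of 10 listed partners, 3 rose (Pkp2, Pkp4 and Dsg4), 3 fell (Evpl, Ppl and Cdsn) and 4 did not pass (Jup, Dsp, Dsg1c and Kazn), beside 45.7% called among all genes tested. The list had a median log2 fold change of −0.22.

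The cytoplasmic core showed small differences. Jup, or plakoglobin, which binds the cadherin tails, was at 1246 ± 22.0 CPM in control and 1299 ± 156 CPM in Nampt-cKO skin (± SD over 4 libraries per group, log2 fold change 0.06 with a sign that turned in 4 alternatives, 95% confidence interval −0.15 to 0.27, edgeR adjusted p = 0.625). Dsp, or desmoplakin, had 4509, 4655, 4131 and 4050.0 CPM in controls and 3685, 4003, 3526 and 3901 CPM in Nampt-cKO replicates. All Nampt-cKO libraries were below all controls by a small margin, and the log2 fold change of −0.20 (standard error 0.08) missed the threshold (edgeR adjusted p = 0.0685, where the alternatives gave values on both sides of it). Without Nampt-cKO replicate 2 it was −0.23 and passed (edgeR adjusted p = 0.0475).

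Plakin and corneodesmosome genes of the upper layers fell clearly. Ppl, or periplakin, which joins desmosomes to the cornified envelope, was at 1063 to 1177 CPM in controls and 381 to 516 CPM in Nampt-cKO libraries (log2 fold change −1.35, edgeR adjusted p = 2.63e-05). Evpl, or envoplakin, its binding partner, was at 499 to 522 CPM and 242 to 322 CPM (log2 fold change −0.89, edgeR adjusted p = 1.69e-04). Cdsn, or corneodesmosin, the adhesive glycoprotein of desmosomes in the cornified layer, was at 755 to 791 CPM and 480 to 557 CPM (log2 fold change −0.58, edgeR adjusted p = 2.81e-04). None of the 3 overlapped between the groups.

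The partners that rose were less abundant. Pkp2, the plakophilin of heart and simple epithelia, was at 4.79 ± 0.495 CPM in control and 8.23 ± 2.07 CPM in Nampt-cKO skin (± SD over 4 libraries per group, log2 fold change 0.78, edgeR adjusted p = 0.0119). Pkp4, an armadillo protein of adherens junctions and desmosomes, was at 109 ± 5.10 and 149 ± 22.1 CPM (± SD over 4 libraries per group, log2 fold change 0.44, edgeR adjusted p = 0.00898). Dsg4, the desmoglein of the hair shaft, had 0.855 to 1.39 CPM in controls and 10.6, 2.64, 1.76 and 3.28 CPM in Nampt-cKO replicates (log2 fold change 2.02, edgeR adjusted p = 0.0135). Replicate 1 stood above the rest, and leaving it out lowered the log2 fold change to 1.17 (edgeR adjusted p = 0.0154). Dsg4 did not pass on log2(RPKM + 1) (0.60, limma adjusted p = 0.0964) or on unfiltered log2(RPKM + 0.1) (limma adjusted p = 0.0662). Dsg1c, the third copy of desmoglein 1, was at 0.229 to 1.12 CPM in all libraries (log2 fold change −1.16, edgeR adjusted p = 0.0528), and passed without Nampt-cKO replicate 1 (edgeR adjusted p = 0.0428) and without Nampt-cKO replicate 4 (edgeR adjusted p = 0.0491). Kazn, or kazrin, a periplakin-binding protein, had a log2 fold change of −0.24 (edgeR adjusted p = 0.103), which passed without Nampt-cKO replicate 4 (−0.33, edgeR adjusted p = 0.0293).

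**Figure D4:**
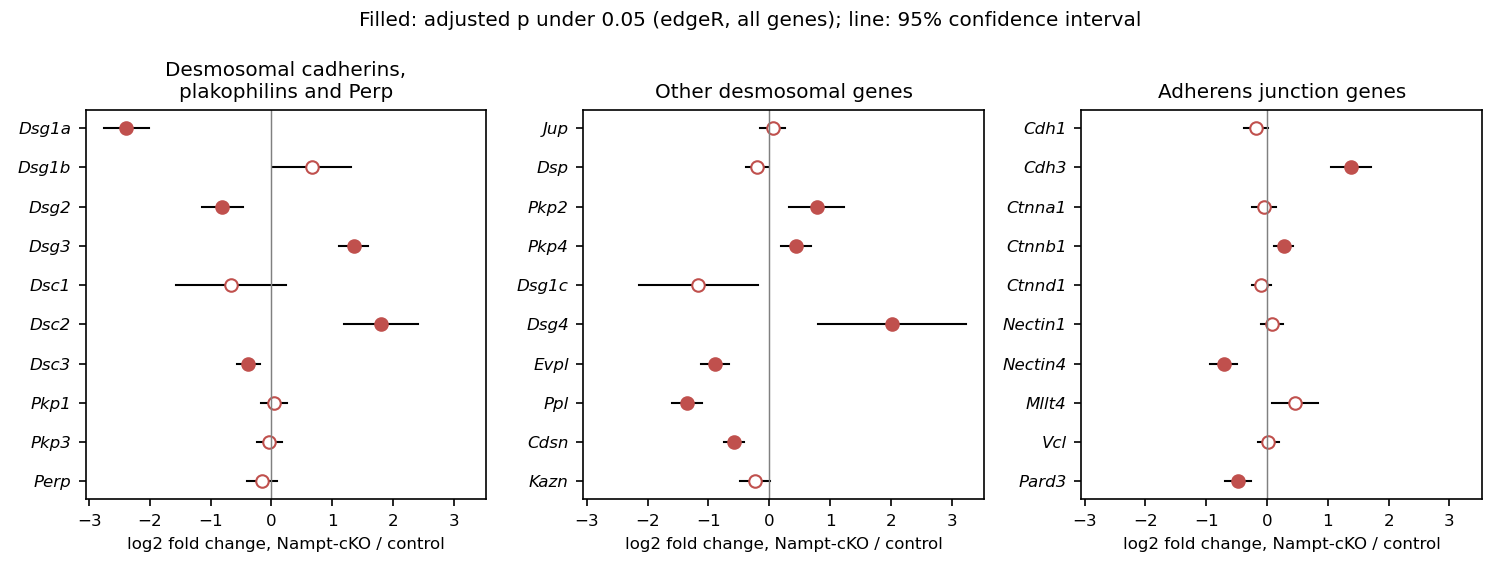
Log2 fold change (Nampt-cKO over control, 4 libraries each) with its 95% confidence interval for the 10 members (left), 10 other desmosomal genes (middle) and 10 adherens junction genes (right). Filled points passed an adjusted p of 0.05 in edgeR's test over all genes, 5, 6 and 4 of them, and each panel holds filled points on both sides of 0.

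The promoter windows of the scaffold genes Jup and Dsp are shown because they are the shared anchors of all the cadherins above and did not pass the test, and because Sp and Klf factors, which bind GGGCGG, include regulators of the epidermis. Each holds 300 bases (RefSeq, GRCm38.p6), and GGGCGG on either strand is in capitals. In the deposited table Dsp starts at 38151082 and Jup, on the minus strand, at 100397805. Each window thus holds bases from both sides of that start, and most of the Dsp window lies inside the gene.
Jup, chr11:100397741-100398040, minus strand: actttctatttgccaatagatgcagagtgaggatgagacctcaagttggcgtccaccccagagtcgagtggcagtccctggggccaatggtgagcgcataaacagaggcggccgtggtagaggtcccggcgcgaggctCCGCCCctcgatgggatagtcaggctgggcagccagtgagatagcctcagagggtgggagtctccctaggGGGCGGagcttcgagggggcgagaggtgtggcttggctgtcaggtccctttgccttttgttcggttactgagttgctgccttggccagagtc
Dsp, chr13:38151044-38151343, plus strand: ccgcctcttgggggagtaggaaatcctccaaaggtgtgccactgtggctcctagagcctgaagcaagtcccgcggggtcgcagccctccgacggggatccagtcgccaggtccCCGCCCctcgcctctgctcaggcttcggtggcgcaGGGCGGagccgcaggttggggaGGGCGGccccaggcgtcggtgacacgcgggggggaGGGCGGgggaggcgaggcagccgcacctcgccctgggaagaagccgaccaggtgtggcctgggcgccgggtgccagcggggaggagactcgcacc
Jup holds 2 matches and Dsp holds 4, and 35.7% of all 32851 windows of 300 bases hold at least 1. Neither window holds AACCGGT (Grainyhead-like, in 1.02% of all windows) or TGAGTCA (AP-1, in 5.20% of all windows). A match is only a description of these letters.

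The genes of the adherens junction, the neighbouring cadherin-based contact, served for comparison. Of 10, 2 rose, 2 fell and 6 did not pass, beside 45.7% called among all genes tested. Their median log2 fold change was −0.01. Cdh3, or P-cadherin, the classical cadherin of basal cells, rose from 53.7 ± 2.04 to 139 ± 29.3 CPM (± SD over 4 libraries per group, log2 fold change 1.37, edgeR adjusted p = 1.09e-04), a change close in size to that of Dsg3. Cdh1, or E-cadherin, was at 541 ± 23.6 and 477 ± 48.1 CPM (± SD over 4 libraries per group, log2 fold change −0.18, edgeR adjusted p = 0.121), and passed as lower in 5 alternatives. Ctnnb1, or beta-catenin, rose slightly (log2 fold change 0.27, edgeR adjusted p = 0.0109), a call that was lost in all 3 fits on log2 RPKM (limma adjusted p = 0.0634 to 0.147). Nectin4, a cell adhesion molecule (log2 fold change −0.71, edgeR adjusted p = 3.84e-04), and Pard3, a polarity protein (log2 fold change −0.48, edgeR adjusted p = 0.00252), fell. Mllt4, or afadin, had a log2 fold change of 0.46 (edgeR adjusted p = 0.0522) and passed without Nampt-cKO replicate 3 (0.61, edgeR adjusted p = 0.00147).

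Of 8 proteases and inhibitors linked to the cleavage of desmosomal proteins, 3 rose, 3 fell and 2 did not pass. Among all genes tested 23.8% rose and 22.0% fell. Adam10, a membrane protease that sheds cadherins, rose (log2 fold change 0.56, edgeR adjusted p = 4.91e-04) and Adam17, its relative, fell (log2 fold change −0.29, edgeR adjusted p = 0.0127). Klk5, a kallikrein that cleaves corneodesmosomal proteins, fell (log2 fold change −0.93, edgeR adjusted p = 6.33e-04), as did its inhibitor Spink5, from 893 ± 56.8 to 489 ± 110 CPM (± SD over 4 libraries per group, log2 fold change −0.87, edgeR adjusted p = 0.00103). Klk14, another kallikrein, rose from a low level, with 0.605 to 1.15 CPM in controls and 0.871, 12.6, 12.0 and 2.50 CPM in Nampt-cKO replicates (log2 fold change 2.96, edgeR adjusted p = 0.0108). Replicates 2 and 3 were again the high ones and replicate 1 lay among the controls. The call was lost in all 3 fits on log2 RPKM (limma adjusted p = 0.0616 to 0.0872) and with a block for replicate number (edgeR adjusted p = 0.0665). Klk7 did not pass (log2 fold change 0.30, edgeR adjusted p = 0.327), but did without Nampt-cKO replicate 1 (0.51, edgeR adjusted p = 0.00123). Spink12, an inhibitor of the same family as Spink5, had 2 reads over the 4 controls, all in replicate 1, whereas the 4 Nampt-cKO libraries together had 3603, or 1802 times as many (499 to 14887 by a 95% counting interval). That interval takes each read as separate, so it is too narrow if mates were counted one by one.

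Among 10 regulators of epidermal genes, 2 rose and 4 fell, beside 23.8% and 22.0% of all genes tested. However, 3 passed in all without control replicate 1, and 3 without control replicate 2. In those fits 6526 and 6624 of all genes passed. Grhl1, a Grainyhead-like factor that activates desmoglein 1 in mouse skin, fell from 302 ± 12.3 to 147 ± 18.2 CPM (± SD over 4 libraries per group, log2 fold change −1.03, edgeR adjusted p = 5.35e-05). Trp63, or p63, which activates Perp, had a log2 fold change of 0.11 (edgeR adjusted p = 0.439), and Trp53, or p53, rose (log2 fold change 0.46, edgeR adjusted p = 4.51e-04). Of 10 other targets of p53, 5 rose and 2 fell, beside 23.8% and 22.0% of all genes tested. The apoptosis gene Bax (log2 fold change 0.83, edgeR adjusted p = 2.20e-04) and Phlda3 (log2 fold change 1.10, edgeR adjusted p = 7.69e-04) were among those that rose, and the most abundant target, Cdkn1a, did not pass (log2 fold change −0.27, edgeR adjusted p = 0.0780), but was lower and past the threshold in 6 alternatives, among them without Nampt-cKO replicate 4 (−0.38, edgeR adjusted p = 0.00926).

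Markers of the layers changed too. Of 9 suprabasal genes, 5 fell and 0 rose, beside 22.0% and 23.8% of all genes tested. Their summed level went from 21561 to 23150 CPM in controls to 3361 to 9111 CPM in Nampt-cKO libraries. Krt10, the suprabasal keratin, fell with a log2 fold change of −2.26 (edgeR adjusted p = 2.83e-04), and Ivl, or involucrin, with −1.56 (edgeR adjusted p = 1.49e-05). The 4 genes that did not pass went both ways. Flg (log2 fold change 1.19, edgeR adjusted p = 0.0532) and Tgm1 (0.29, edgeR adjusted p = 0.322) were above 0. Krt1 (−0.24, edgeR adjusted p = 0.700) and Krt2 (−3.21, edgeR adjusted p = 0.124) were below 0. Without Nampt-cKO replicate 1, 8 of the 9 passed, 6 lower and 2 higher. Over all genes 9009 passed in that fit, 4475 lower and 4534 higher. Of 6 basal genes, 3 rose and 0 fell (3 and 2 without Nampt-cKO replicate 1), with summed levels of 19204 to 21595 CPM and 20870.5 to 28047 CPM. Among all genes tested 23.8% rose and 22.0% fell. Krt15 (log2 fold change −1.31, edgeR adjusted p = 0.0868) and Col17a1 (−0.31, edgeR adjusted p = 0.152) were below 0 and did not pass. Krt5 (0.18, edgeR adjusted p = 0.216) was above 0 and did not pass either. Itgb4, the integrin subunit of hemidesmosomes, rose with a log2 fold change of 0.65 (edgeR adjusted p = 6.86e-04). Of 5 genes of simple epithelia and glands, where Dsg2 and Dsc2 are at home, only Krt18 rose, from 0.120 ± 0.157 to 3.82 ± 2.22 CPM (± SD over 4 libraries per group, edgeR adjusted p = 0.00251), and it was at 0 in some libraries. Genes of cells other than keratinocytes moved with the groups as well. All 4 tested T cell genes fell, with summed levels of 25.0 to 33.5 CPM in controls and 1.24 to 5.39 CPM in Nampt-cKO libraries. The fifth, Trdc, has an exon length of 0 in the deposited table, so no exon read could be counted for it. Of 5 fibroblast genes 3 fell and 1 rose, with sums of 4964 to 7702 CPM and 2116 to 3900 CPM. All 5 melanocyte genes rose, with sums of 31.1 to 56.9 CPM and 63.9 to 139 CPM. The part of the layers and of these cells in the desmosomal values was not tested.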

How the data were processed

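Genes and lists were chosen with earlier results of these data known. The authors deposited, per gene and library raw counts of total exon, unique exon and gene reads, beside exon length and RPKM computed by them from the exon reads. More of the counts above 0 were even (61.7% to 64.2%) than odd, which points to mates being counted one by one. The submitters' notes give the build GRCm38 (mm10); no aligner or counter is named there or in the paper's methods. Test columns of the authors (p-value, fold change, weighted difference) were left aside, as were 88 other columns of per-library values. Start coordinates, zero-based in the table, are given here with 1 added.

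The main fit used edgeR 4.0.16 under R 4.3.3 on total exon reads, with group alone as its term, normalization by TMM and the default filter on low counts, leaving 17286 genes and a biological coefficient of variation of 0.283. On simulated counts of 4 against 4 libraries, 84%, 46%, 52% and 78% of genes with log2 fold changes of −2, −1, 1 and 2 were called, and 5.80% of calls were false. There, only 50 genes per size were changed among 16928 tested, with the same spread in both groups. In the data 45.7% of genes passed and Nampt-cKO libraries varied more, so these shares need not hold for the main fit. Replicates varied beyond sampling noise (chi-square per gene 8.93 to 30.9 between controls, 44.1 to 143 between Nampt-cKO libraries). Ratios were taken on reads with 1 added. Counting intervals (95%) cover counting error only, with each read taken as separate. As alternatives, the fit was repeated with DESeq2 1.42.0, with limma-voom (limma 3.58.1), with limma on log2(RPKM + 0.1), filtered or not, and on log2(RPKM + 1), with 3 other scalings (RLE, upper quartile, none), with 2 other filters (none, stricter), on gene reads and on unique exon reads, with a block for replicate number, and without each library. Exact tests ran in SciPy 1.17.1 (Python 3.11.15, pandas 2.3.3, NumPy 2.4.6), and plots were drawn in Matplotlib 3.10.9.

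Named were the members, the partner and adherens junction genes, Nampt, annotated genes within 200 kb of the cadherin cluster, and, in other lists, the most abundant gene and up to 3 with the smallest adjusted p. The suprabasal and basal genes that did not pass were named as well. Promoter windows were matched by symbol in a RefSeq table: 0 of 10 members, 5 of 10 partners and 5 of 10 adherens junction genes matched.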

Additional observations from a re-analysis of the deposited data

Results flagged for a closer look

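In 3 of 72 groups of 4 libraries, a library lay far from the rest by Dixon's criterion for a single outlying value, which chance does in about 1 of 20 groups. Dsg2 was at 53.1 CPM in control replicate 4 and at 36.0 to 38.2 CPM in the other controls. Without that library its log2 fold change was −0.66 (edgeR adjusted p = 0.00317). Pkp3 was at 572 CPM in Nampt-cKO replicate 2 and at 452 to 472 CPM in the other Nampt-cKO libraries. Kazn was at 68.4 CPM in control replicate 2 and at 61.0 to 61.7 CPM in the other controls.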

How the results depend on the processing

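Of 210 fits of the members (10 genes, 21 alternatives), 198 kept both direction and call, and the counts of 5 members, 6 partners and 4 adherens junction genes past the test stayed within 1.5 times under every alternative. Dsg1b passed with DESeq2 (adjusted p = 0.0361) and limma-voom (adjusted p = 0.0471), and Dsc1 with limma-voom (log2 fold change −0.90, adjusted p = 0.0300). The sign of near-zero changes turned: Pkp1 had a log2 fold change of −0.0091 with upper-quartile factors and −0.0055 with limma-voom, and −0.042 in all 3 fits on log2 RPKM. In those 3 fits Jup was at −0.031, and B4galt6 at −0.056 with 0.1 added to the RPKM and −0.022 with 1 added. Leaving out single libraries gave −0.023 to 0.094 for Pkp1, −0.025 to 0.107 for Jup and −0.113 to 0.238 for B4galt6. The causes were not tested. Over all genes, 4109 were higher and 3796 lower, and on log2(RPKM + 0.1) 3313 and 4618 with the filter and 3233 and 4473 without it. With the replicate number as a block, 5 members passed, 2 higher and 3 lower, beside 7516 of all genes, 3749 higher and 3767 lower. After the group means were removed, libraries sharing a number correlated at −0.05 to 0.18, 2 of 4 over 0.1. Libraries with different numbers correlated at −0.23 to 0.14, 1 of 12 over 0.1. With 4 libraries per group, these values cannot decide whether the numbers pair the samples. Ratios with a library left out have no test, and their difference between groups on the log2 scale was, for Dsg3 to Dsg1a plus Dsg1b, 2.87 to 3.25, Dsg1a to Dsg1b −3.25 to −2.79, Dsg2 to Dsg3 −2.26 to −1.98, Dsc2 to Dsc3 1.88 to 2.30, Dsc3 to Dsc1 0.13 to 0.85 and Pkp1 to Pkp3 0.04 to 0.12. Dsg2, with few uniquely mapped reads, and genes under 1 CPM are least certain.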
